A study of Mus musculus with 36 samples.

Results

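Lung RNA of Notch3-/- mice exposed to ozone for 48 hr was compared with lung RNA of Notch3-/- mice kept in filtered air. The comparison holds the 3 arrays titled for Notch3-/- lung after 48 hr ozone and the 3 titled for Notch3-/- lung after air, 6 of the 36 arrays of the series, with 45037 of the 45101 probe sets on the array (64 are array controls). A probe set is a group of short probes that measures 1 transcript or part of it. Each array holds RNA from the left lung of 1 male mouse, 7 to 13 weeks old. The Notch3-/- mice carry the allele Notch3tm1Grid, a germline knockout present in every cell, and are the mice of both the ozone and the air group. Ozone was given to the whole body without a break at 0.3 ppm, and air mice were housed in parallel in filtered air for a time the labels do not give. The other groups used here are Notch3-/- mice after 6 and 24 hr of the same ozone, Notch4-/- mice after 48 hr ozone and after air, and wild type (WT) B6129SF1/J mice after 48 hr ozone and after air, with 3 mice in each. The knockout allele and the strain background differ together between Notch3-/- and WT mice and cannot be told apart.

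Ozone is an oxidant gas that reacts with the fluid and cell membranes lining the airways, and epithelial cells and alveolar macrophages answer with cytokines, chemokines and antioxidant enzymes. Epithelial cells that are damaged are replaced by division of the surviving cells, for which DNA is first copied (licensing of replication origins, replication forks, supply of deoxynucleotides) and chromosomes are then separated (kinases, kinetochore and spindle proteins). Notch3 is a cell surface receptor best known in vascular smooth muscle and pericytes, and in the airway it takes part in cell fate choices of epithelial progenitors.

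Values are log2, with each probe set centred on its median over the 36 arrays, so 0 is the middle of the series and 1 is a doubling. Brightness, and with it the absolute level of any lung marker, cannot be read from centred values. A gene is called higher or lower where its adjusted p from limma (Benjamini-Hochberg over the 45037 probe sets) is under 0.05, and a difference is given with its standard error (SE). With 3 mice in each group, and unless a left-out mouse is named, each gene described here as higher or lower kept its call when any 1 of the 6 mice compared was left out. In whole lung, more cells of a type and more RNA per cell cannot be told apart, nor can fewer cells and less RNA per cell.

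Both Notch3 probe sets were low in all 6 mice. The probe set 1421964_at read -2.19, -1.71 and -1.88 after 48 hr ozone and -1.91, -1.93 and -2.30 after air in Notch3-/- mice, against -0.06, 0.20 and -0.37 after ozone and 0.48, 0.47 and -0.004 after air in WT mice. Between ozone and air in Notch3-/- mice it differed by 0.12 (SE 0.16, adjusted p = 0.834) and the other Notch3 probe set, 1421965_s_at, by -0.07 (SE 0.24, adjusted p = 0.952). Air replicate 3 had high values of skeletal muscle genes: the mean over 16 skeletal muscle genes was 2.99 in this mouse and between -0.26 and 0.24 in the other 5. The fast muscle troponin gene Tnnc2 read 0.03, -0.18 and 6.38 in the 3 air mice. Other tissue markers also varied between mice. The mean over 16 cardiac muscle genes was 0.95, 0.32 and -1.43 in the ozone mice, against -0.22, 0.85 and -0.36 in the air mice. The mean over 10 adipose genes was 1.03, 0.365 and -0.62 in the ozone mice, against -0.16, 1.01 and -0.545 in the air mice. The part of these tissues in the results was not tested. In Notch4-/- air replicates 1 and 2, a Notch4 probe set (1449146_at) read -1.97 and -1.40, against -3.69 in air replicate 3, so the results on Notch4-/- mice are given with and without these 2 mice. Without them 1 air mouse is left, and its spread is taken to be that of the other groups. The standard deviation of the difference between 2 mice of a group, over all probe sets, lay between 0.236 and 0.356 for ozone mice, between 0.272 and 0.328 for air mice and between 0.217 and 0.454 over all groups.

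After 48 hr ozone, 1109 of 45037 probe sets (2.46%) differed from air in Notch3-/- lung. Of these, 871 were higher (1.93%, 657 named genes) and 238 were lower (0.528%, 190 named genes). The rises were larger than the falls: 283 probe sets rose by more than 1 log2 and 55 by more than 2, while 5 fell by more than 1 and 0 by more than 2, with a median of 0.76 among the higher and -0.50 among the lower. In 859 of the 871 higher probe sets all 3 ozone mice lay above all 3 air mice. In 234 of the 238 lower ones all 3 ozone mice lay below all 3 air mice. As these probe sets were called on the values of the same mice, the 859 and 234 are no separate test of the calls. Counted with 1 probe set for each of 18193 genes, 502 genes (2.76%) were higher and 94 (0.517%) were lower. In 2284 genes (12.6%) all 3 ozone mice lay above all 3 air mice, and in 1690 (9.29%) all 3 lay below. These shares are the background for the list counts below. The median difference over all genes was -0.004. Air replicate 1 weighed most on the count, which was 560 without it, and it was 586 without ozone replicate 2, 636 without air replicate 2 and 641 without ozone replicate 1.

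**Figure D1:**
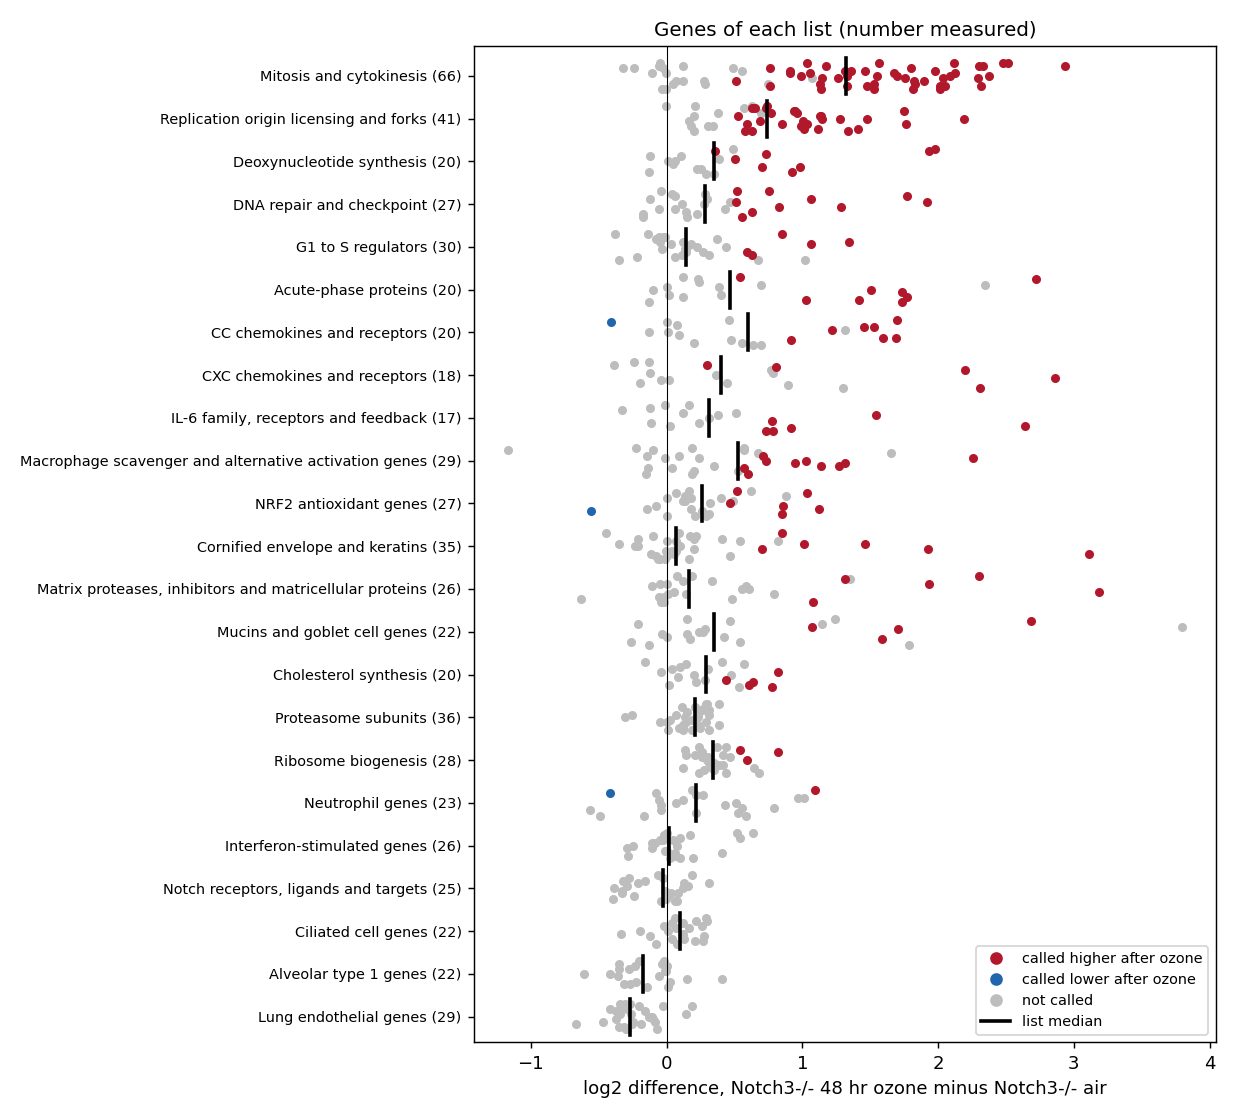
Log2 difference between Notch3-/- lungs after 48 hr ozone and after air for each measured gene of 23 lists (1 point per gene, 1 probe set per gene, number measured in brackets, lists down the page). Points in red passed the test as higher after ozone, points in blue as lower, grey points did not pass, and the black bar is the list median. The mitosis list lies furthest to the right with a median of 1.32, while the endothelial list has a median of -0.27 and 0 genes called.

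The broadest change was in genes of cell division. Of 66 measured genes of mitosis and cytokinesis, 47 were higher after 48 hr ozone and 0 were lower, with a median difference of 1.32 against -0.004 over all genes. The groups did not overlap, with ozone higher, in 51 of the 66 (12.6% of all genes did so), and with ozone lower in 2 (9.29% of all genes). When any probe set of the gene was counted, 58 of 66 had a call. The list mean was 0.76, 0.96 and 1.15 in the 3 ozone mice, against -0.36, -0.42 and -0.01 in the 3 air mice. Air replicate 3 was thus the highest air mouse and was also the mouse with high skeletal muscle genes, and the part of this in the result was not tested. Leaving out any 1 mouse left between 44 and 47 of the 66 called, and 47 without air replicate 3.

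Cdk1 is the kinase that starts mitosis. It read 1.42, 1.76 and 1.98 in the ozone mice, against -1.004, -1.19 and -0.20 in the air mice. All 3 ozone mice lay more than 1 log2 above the highest air mouse, and the difference was 2.51 (SE 0.36, adjusted p = 9.6e-05), a fold of 5.71. Its partners rose with it, the cyclin Ccna2 by 2.33 (SE 0.32, adjusted p = 6.75e-05) and the cyclin Ccnb2 by 2.09 (SE 0.30, adjusted p = 8.13e-05). Ccnb2 read 1.26, 1.59 and 1.89 after ozone, against -0.71, -0.84 and 0.01 after air. Plk1, the kinase that matures the spindle poles, read 0.97, 1.40 and 1.67 after ozone, against -0.25, -0.39 and 0.02 after air, a difference of 1.55 (SE 0.26, adjusted p = 0.000469). In each of these genes the air mice stood close together at 1 level apart from replicate 3, which was the highest of them, and the ozone mice were all above it.

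The promoters of these genes are shown because the list moved together and because mitotic genes share a known pair of promoter elements. These are the CHR (cell cycle genes homology region, searched as TTTGAA or TTCGAA) and the CCAAT box (CCAAT), both searched on either strand, so that a CCAAT box can print as ATTGG. Windows are RefSeq, GRCm38.p6, from 250 bases before to 50 bases after the gene start, 5′ to 3′ on the gene's strand, with matches in capitals. The Cdk1 window lies at chr10:69352863-69353162 on the minus strand, the Plk1 window at chr7:122159185-122159484 on the plus strand and the Ccnb2 window at chr9:70421505-70421804 on the minus strand.
Cdk1: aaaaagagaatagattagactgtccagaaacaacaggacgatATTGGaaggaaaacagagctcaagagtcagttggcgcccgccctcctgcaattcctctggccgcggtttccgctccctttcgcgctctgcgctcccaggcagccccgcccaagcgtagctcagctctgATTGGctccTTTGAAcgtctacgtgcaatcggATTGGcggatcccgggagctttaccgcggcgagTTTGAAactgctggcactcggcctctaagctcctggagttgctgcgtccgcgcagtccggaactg
Plk1: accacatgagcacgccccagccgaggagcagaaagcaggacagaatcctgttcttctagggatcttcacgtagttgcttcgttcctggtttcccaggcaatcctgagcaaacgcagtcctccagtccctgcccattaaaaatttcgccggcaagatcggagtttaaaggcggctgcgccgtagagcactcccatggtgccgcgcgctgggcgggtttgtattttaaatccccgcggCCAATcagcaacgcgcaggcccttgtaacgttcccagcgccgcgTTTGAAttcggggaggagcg
Ccnb2: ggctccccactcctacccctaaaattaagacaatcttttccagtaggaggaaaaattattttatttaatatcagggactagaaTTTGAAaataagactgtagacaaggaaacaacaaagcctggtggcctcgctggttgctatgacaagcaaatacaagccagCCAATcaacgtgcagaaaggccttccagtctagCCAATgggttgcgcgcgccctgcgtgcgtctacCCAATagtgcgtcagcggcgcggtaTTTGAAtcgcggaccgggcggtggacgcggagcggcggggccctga

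The Cdk1 window holds 2 CHR and 3 CCAAT matches, the Plk1 window 1 of each, and the Ccnb2 window 2 CHR and 3 CCAAT matches. Of the 66 measured mitosis genes, 53 had a window, and 42 of these (79.2%) held a CHR match and 36 (67.9%) a CCAAT match. A window with both was found for 33 of the 53 (62.3%), against 2090 of all 27025 genes with a window (7.73%). Over all genes, 19.5% had a CHR match and 38.0% a CCAAT match. Of the 38 mitosis genes called higher that had a window, 30 (78.9%) held a CHR match and 25 (65.8%) held both. These shares are near those of the whole list, so the matches go with the list. Any part of them in the rise was not tested. A match is a run of letters and not a measured binding site.

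Among kinases and their activators, Aurkb of the chromosomal passenger complex had the lowest p of the list. Aurkb read 1.29, 1.30 and 2.00 after ozone, against -0.44, -0.48 and 0.05 after air, a difference of 1.82 (SE 0.21, adjusted p = 1.12e-05). Its passenger partner Birc5 (survivin) rose by 2.48 (SE 0.44, adjusted p = 0.000963) and the spindle pole kinase Aurka by 1.97 (SE 0.29, adjusted p = 0.000113). Cdc20, the activator of the ligase that ends metaphase, rose by 2.01 (SE 0.27, adjusted p = 4.12e-05). Melk and Pbk, kinases found mainly in dividing cells, rose by 2.38 (SE 0.35, adjusted p = 0.000111) and 2.93 (SE 0.43, adjusted p = 0.000114). Cks1b, a small subunit that binds Cdk1, rose by 1.53 (SE 0.19, adjusted p = 2.77e-05).

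Kinetochore and spindle genes were also among those called. Nuf2, which ties kinetochores to microtubules, read 1.41, 1.81 and 2.18 after ozone, against -0.66, -0.39 and 0.09 after air, a difference of 2.13 (SE 0.28, adjusted p = 4.66e-05). The checkpoint gene Bub1b rose by 1.13 (SE 0.18, adjusted p = 0.000221). Kif20a, a kinesin of cytokinesis, read 1.42, 1.97 and 2.21 after ozone, against -0.49, -0.86 and 0.07 after air, a difference of 2.30 (SE 0.30, adjusted p = 3.32e-05). Cep55, which is not on the list and recruits the machinery that cuts the last bridge between daughter cells, read 1.70, 2.04 and 2.48 after ozone, against -1.54, -1.57 and -0.02 after air, a difference of 3.11 (SE 0.41, adjusted p = 4.06e-05), a fold of 8.65. The groups stayed apart in all of these, with the widest gap between means for Cep55. The widely used proliferation marker Mki67 read 1.41, 1.90 and 2.15 after ozone, against -0.70, -0.88 and 0.10 after air, a difference of 2.32 (SE 0.36, adjusted p = 0.000229). The kinetochore gene Cenpf read 1.56, 1.75 and 2.16 after ozone, against -0.81, -0.67 and 0.05 after air, a difference of 2.30 (SE 0.38, adjusted p = 0.000444).

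Not all of the list moved. Securin (Pttg1) had a difference of -0.32 (adjusted p = 0.792), the checkpoint kinase Ttk one of -0.24, and the transcription factor Mybl2 one of 0.49 (adjusted p = 0.15). Foxm1, the transcription factor of mitotic genes, had a difference of 0.28 (adjusted p = 0.141) in the probe set that stands for it, while another of its probe sets was called. For topoisomerase Top2a, the probe set that stands for the gene differed by -0.06, while 1454694_a_at rose by 2.37 (SE 0.36, adjusted p = 0.000171).

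**Figure D2:**
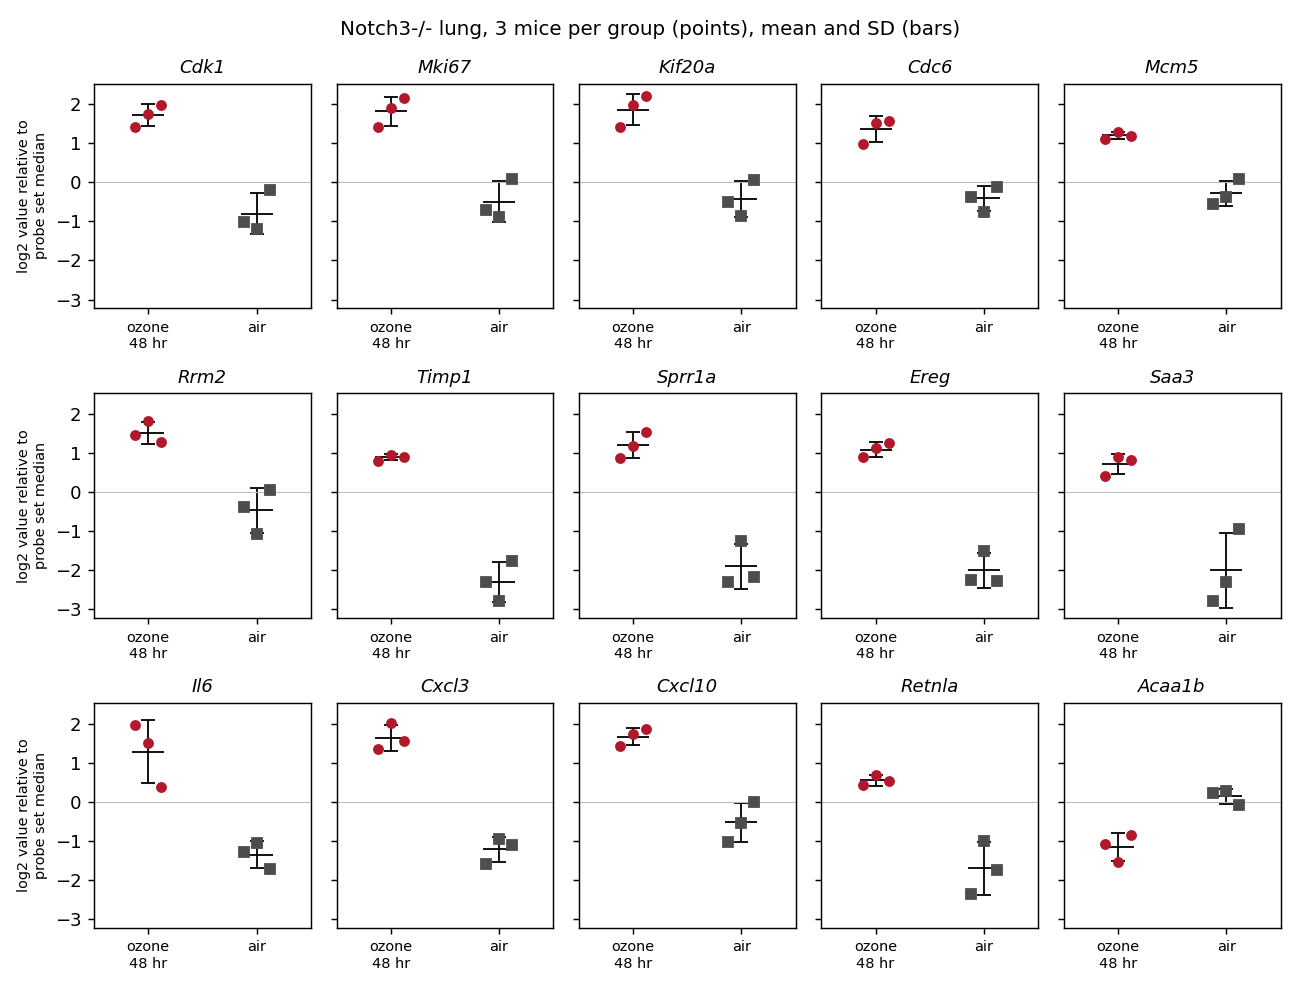
Log2 value relative to the probe set's median over 36 arrays for 15 genes in Notch3-/- lung after 48 hr ozone (red circles, left) and after air (grey squares, right), 1 point per mouse, with mean and SD as bars (n = 3 each). In 14 of the genes all 3 ozone mice lie above all 3 air mice, and in Acaa1b all 3 lie below.

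Genes that copy DNA rose less far. Of 41 measured genes of replication origin licensing and forks, 29 were higher and 0 lower (2.76% of all genes were higher), with a median of 0.74, and in 35 all ozone mice lay above all air mice. Leaving out 1 mouse left between 20 (without air replicate 2) and 31 of them called. The list mean was 0.45, 0.66 and 0.64 in ozone mice, against -0.30, -0.42 and -0.01 in air mice. Cdc6, which loads the replicative helicase onto origins, read 0.98, 1.52 and 1.58 after ozone, against -0.37, -0.75 and -0.11 after air, a difference of 1.77 (SE 0.23, adjusted p = 3.51e-05). The helicase subunit Mcm5 read 1.13, 1.29 and 1.20 after ozone, against -0.55, -0.36 and 0.08 after air, a difference of 1.48 (SE 0.24, adjusted p = 0.000325). Another subunit, Mcm6, read 0.65, 0.75 and 0.87 after ozone, against -0.43, -0.69 and 0.04 after air, a difference of 1.12 (SE 0.21, adjusted p = 0.0017). Air replicate 3 was again the highest air mouse in each, below every ozone mouse.

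The Mcm windows are printed as replication genes are known targets of E2F factors, whose element was searched as TTTCCCGC, TTTCGCGC, TTTGGCGC or TTTGCCGC on either strand. Matches stand in capitals, and the windows lie at chr8:75109259-75109558 on the plus strand for Mcm5 and at chr1:128359656-128359955 on the minus strand for Mcm6 (RefSeq, GRCm38.p6).
Mcm5: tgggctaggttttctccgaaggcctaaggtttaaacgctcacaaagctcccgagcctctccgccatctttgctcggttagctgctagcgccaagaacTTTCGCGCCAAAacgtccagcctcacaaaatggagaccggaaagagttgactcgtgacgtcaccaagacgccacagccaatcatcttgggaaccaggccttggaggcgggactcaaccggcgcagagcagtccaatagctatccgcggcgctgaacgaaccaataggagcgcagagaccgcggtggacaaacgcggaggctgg
Mcm6: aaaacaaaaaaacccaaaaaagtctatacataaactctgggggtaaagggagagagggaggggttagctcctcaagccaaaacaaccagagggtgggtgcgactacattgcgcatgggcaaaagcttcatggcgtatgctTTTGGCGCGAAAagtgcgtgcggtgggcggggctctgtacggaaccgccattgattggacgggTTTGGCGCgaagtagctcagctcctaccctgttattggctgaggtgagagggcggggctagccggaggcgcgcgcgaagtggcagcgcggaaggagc

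The Mcm5 window holds 2 E2F matches that overlap and the Mcm6 window holds 3, of which 2 overlap. An E2F match was found in 13 of the 33 replication genes with a window (39.4%), in 5 of the 53 mitosis genes (9.43%) and in 629 of all 27025 genes (2.33%). Of the 24 replication genes called higher that had a window, 10 (41.7%) held an E2F match, near the share of the whole list. A CHR match was found in 9 of the 33 replication genes (27.3%), and both a CHR and a CCAAT match in 6 (18.2%).

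Other helicase subunits moved the same way, Mcm2 by 1.13 (SE 0.21, adjusted p = 0.00135), Mcm7 by 0.94 (SE 0.18, adjusted p = 0.00232) and Mcm4 by 0.65 (SE 0.13, adjusted p = 0.00375). The helicase cofactors Gins1 and Gins2 rose by 1.41 (SE 0.20, adjusted p = 8.61e-05) and 1.75 (SE 0.26, adjusted p = 0.000114). At the fork, the flap nuclease Fen1 rose by 1.28 (SE 0.20, adjusted p = 0.000268), the primase subunit Prim1 by 0.95 (SE 0.15, adjusted p = 0.000271) and the leading strand polymerase Pole by 1.15 (SE 0.21, adjusted p = 0.0015). The histone chaperones Asf1b and Chaf1b, which pack newly made DNA, rose by 1.34 (SE 0.20, adjusted p = 0.000113) and 0.99 (SE 0.15, adjusted p = 0.000171). Uhrf1 and Hells (not on the list), which maintain DNA methylation after copying, rose by 2.19 (SE 0.33, adjusted p = 0.000166) and 2.43 (SE 0.31, adjusted p = 3.22e-05). The sliding clamp Pcna was higher by 0.59 (SE 0.13, adjusted p = 0.006) and did not pass without either of 2 mice (adjusted p = 0.0611 without ozone replicate 2).

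The supply of deoxynucleotides moved in part: 8 of 20 genes were higher (2.76% of all genes were) and 0 lower, with a median of 0.35. The lowest count with a mouse left out was 5 (without air replicate 1 or ozone replicate 3). Rrm2, the subunit of ribonucleotide reductase made in S phase, read 1.46, 1.82 and 1.28 after ozone, against -0.38, -1.07 and 0.07 after air, a difference of 1.98 (SE 0.32, adjusted p = 0.000277). Thymidine kinase Tk1 read 1.11, 1.56 and 1.502 after ozone, against -0.62, -0.93 and -0.07 after air, a difference of 1.93 (SE 0.30, adjusted p = 0.000187). Among 27 DNA repair and checkpoint genes 10 were higher and 0 lower, with a median of 0.29. Brca1, of homologous recombination, read 1.19, 1.41 and 1.46 after ozone, against -1.03, -0.81 and 0.11 after air, a difference of 1.92 (SE 0.27, adjusted p = 6.69e-05).

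Of 30 regulators of the step into S phase, 5 were higher (2.76% of all genes were) and 0 lower, with a median of 0.14. The repressor E2f8, itself made in S phase, rose by 1.34 (SE 0.24, adjusted p = 0.00125). The cyclin E genes Ccne1 and Ccne2 were higher by 0.85 and 1.07, and the calls were lost without air replicate 2 for Ccne1 (adjusted p = 0.0903) and without ozone replicate 3 for Ccne2 (adjusted p = 0.0613). The count for this list was 3 without air replicate 1 or air replicate 2, and 2 without ozone replicate 3.

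The comparison of 48 with 24 hr ozone asked when in the exposure these genes moved. Both times share the air mice, so they were set against each other directly. Between 48 and 24 hr, 360 probe sets (0.799%) differed, 299 higher and 61 lower at 48 hr. The count was 153 without 24 hr replicate 2, 201 without 24 hr replicate 1, 194 without 48 hr replicate 2 and 189 without 48 hr replicate 3. The balance turned with the arrays in the fit, to 285 higher and 555 lower with the Notch3-/- arrays alone and to 463 higher and 1427 lower with the 6 arrays alone, and Tukey's test called 6. Of the 871 probe sets higher at 48 hr than in air, 222 were also higher than at 24 hr and 0 were lower. Of the 238 probe sets lower than in air, 1 was also lower than at 24 hr. As both sets were chosen by the values of the same 48 hr mice, these counts are no test of direction. Counted with 1 probe set per gene, 157 genes (0.863%) were higher at 48 than at 24 hr.

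Mitosis genes made up 45 of these. The list's median difference from air was 0.07 at 6 hr, 0.05 at 24 hr and 1.32 at 48 hr, and its median difference between 48 and 24 hr was 1.25. The mitotic gene Depdc1a, not on the list, which is needed for chromosomes to align, read 1.48, 1.41 and 1.88 at 48 hr, against -0.29, -0.19 and -0.12 at 24 hr, a difference of 1.79 (adjusted p = 3.68e-07). Its air mice read -0.32, -0.09 and -0.07, so air and 24 hr mice overlapped and only the 48 hr mice stood apart. Aurkb was 1.71 higher at 48 than at 24 hr (adjusted p = 8.83e-05), when it read -0.31, -0.24 and 0.02. For Nuf2 this difference was 2.24 (adjusted p = 9.89e-05), with 24 hr mice at -0.60, -0.82 and 0.11. For Cdk1 it was 2.14 (adjusted p = 0.00139), with 24 hr mice at -0.66, -0.95 and 0.34, all below the lowest 48 hr mouse. Further outside the list, the neural adhesion molecule Chl1 read 2.14, 1.98 and 2.06 at 48 hr, against -0.41, -0.26 and -0.70 in air, a difference of 2.52 (SE 0.42, adjusted p = 0.000451). It was 2.06 higher at 48 than at 24 hr (adjusted p = 0.00874), a call lost without either of 2 mice (adjusted p = 0.0511 without 24 hr replicate 2). The mitosis count of 45 lay between 37 (without 24 hr replicate 2) and 45 when any 1 of the 24 and 48 hr mice was left out.

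**Figure D3:**
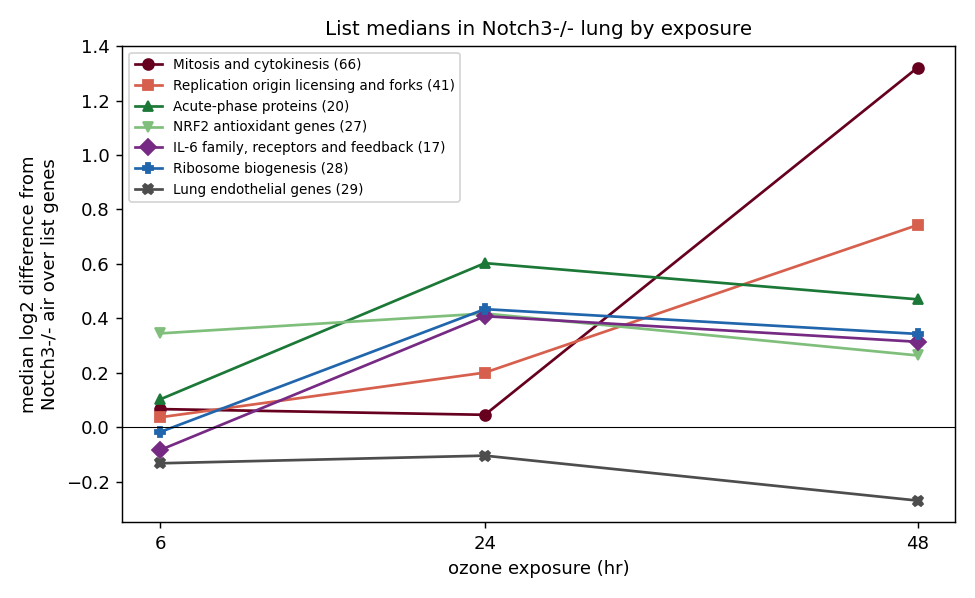
Median log2 difference from Notch3-/- air over the genes of 7 lists (number measured in brackets) after 6, 24 and 48 hr ozone in Notch3-/- mice, which share 1 air group. The mitosis median was 0.05 at 24 hr and 1.32 at 48 hr, while the acute-phase median was 0.60 at 24 hr and 0.47 at 48 hr.

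Replication genes were between these patterns. Their median difference from air was 0.04 at 6 hr, 0.20 at 24 hr and 0.74 at 48 hr. At 48 hr 11 of 41 were higher than at 24 hr (0.863% of all genes were). That count was 6 without 24 hr replicate 2 and 7 without 24 hr replicate 1 or 48 hr replicate 2. Cdc6 was 1.39 higher at 48 than at 24 hr (adjusted p = 0.00113), Pole 1.28 (adjusted p = 0.00116) and Chaf1b 1.02 (adjusted p = 0.000408). Mcm5 was 1.04 higher (adjusted p = 0.0269), and this call was lost without any of 5 mice (adjusted p = 0.151 without 24 hr replicate 2). Mcm6 had a difference of 0.73 (adjusted p = 0.11). Of the 20 deoxynucleotide genes 3 were higher at 48 than at 24 hr. The count was 0 without 24 hr replicate 2, and 1 without 24 hr replicate 1, 48 hr replicate 2 or 48 hr replicate 3. Of the 27 repair genes 6 were higher, and 3 without 24 hr replicate 2 or 48 hr replicate 3. Blm, a helicase of recombination, was higher by 0.95 (adjusted p = 3e-04). Ctps, which makes cytidine triphosphate, did not follow them: it was 0.88 above air at 24 hr (adjusted p = 0.00104) and 0.99 above air at 48 hr (SE 0.14, adjusted p = 0.000114), and 48 and 24 hr differed by 0.11.

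**Figure D4:**
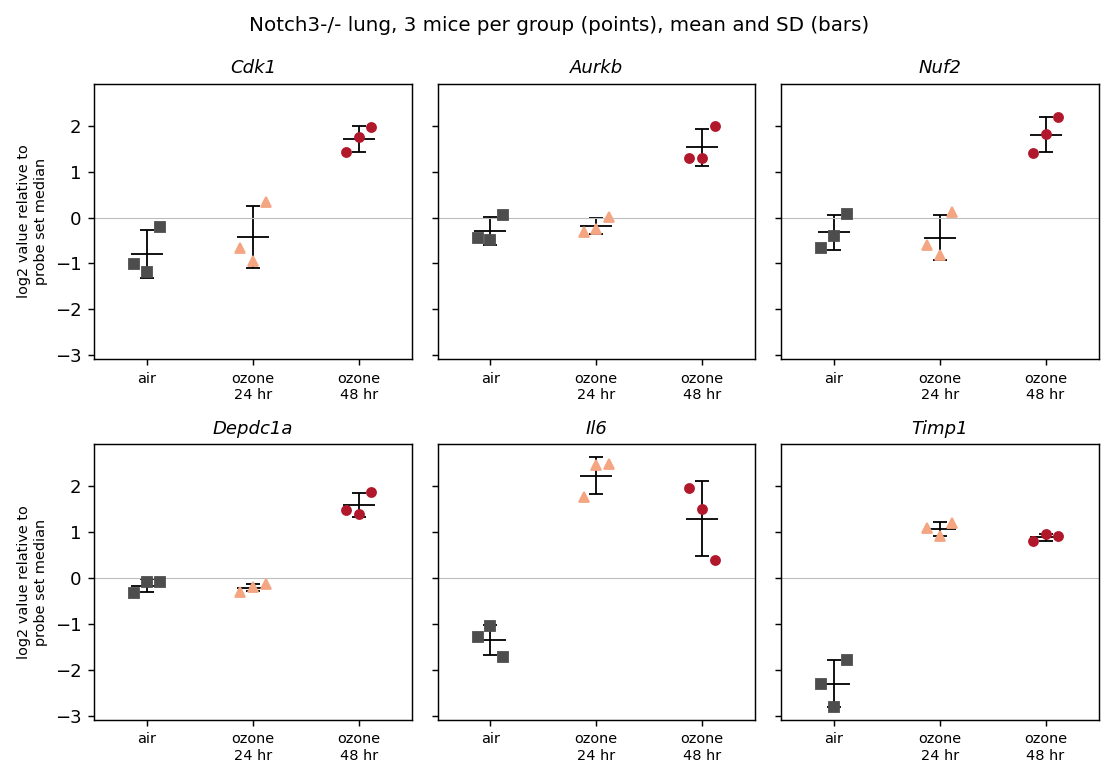
Log2 value relative to the probe set's median for 6 genes in Notch3-/- lung after air (grey squares), 24 hr ozone (orange triangles) and 48 hr ozone (red circles), 1 point per mouse, with mean and SD as bars (n = 3 each). In Cdk1, Aurkb, Nuf2 and Depdc1a the 24 hr mice lie among or near the air mice and the 48 hr mice above both, while in Il6 and Timp1 both ozone groups lie above air.

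Timp1, the inhibitor of matrix metalloproteinases, had the largest rise among the genes called. It read 0.81, 0.96 and 0.92 after 48 hr ozone, against -2.31, -2.80 and -1.77 after air, a difference of 3.19 (SE 0.38, adjusted p = 1.83e-05), a fold of 9.11. At 24 hr it read 1.10, 0.91 and 1.20, and 48 and 24 hr differed by -0.18 (adjusted p = 0.883). The ozone mice of both times lay close together and more than 2 log2 above every air mouse.

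Il6, the cytokine that drives the acute phase, read 1.97, 1.52 and 0.39 after 48 hr ozone, against -1.28, -1.04 and -1.71 after air, a difference of 2.64 (SE 0.39, adjusted p = 0.000114). At 24 hr it read 1.77, 2.46 and 2.49, and 48 and 24 hr differed by -0.94 (adjusted p = 0.27). Ozone replicate 3 was the lowest of the ozone mice, still above all air mice. Socs3, the feedback inhibitor that Il6 induces, read 0.99, 0.86 and 0.43 after ozone, against -0.94, -0.53 and -0.88 after air, a difference of 1.55 (SE 0.15, adjusted p = 5.32e-07). Of 17 genes of the Il6 family, its receptors and feedback, 6 were higher (2.76% of all genes were) and 0 lower, with a median of 0.31. This count was 2 without air replicate 1, and 3 without ozone replicate 2. Osm, a cytokine of the family, was higher by 0.78, a call lost without air replicate 1 (adjusted p = 0.0716).

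Acute-phase genes rose in 8 of 20 cases (2.76% of all genes were higher) and 0 were lower, with a median of 0.47. The list mean was 0.45, 0.47 and 0.16 in ozone mice, against -0.53, -0.41 and -0.49 in air mice. The count was 5 without ozone replicate 1 or ozone replicate 2. Saa3, the serum amyloid made in inflamed tissue, read 0.42, 0.91 and 0.83 after ozone, against -2.78, -2.29 and -0.93 after air, a difference of 2.72 (SE 0.47, adjusted p = 0.000679). Lcn2, which withholds iron from bacteria, read 0.84, 1.34 and 0.69 after ozone, against -0.66, -1.23 and -0.44 after air, a difference of 1.73 (SE 0.23, adjusted p = 4.06e-05). Every ozone mouse was above every air mouse for both genes. Lrg1, a secreted leucine-rich glycoprotein, read 1.32, 1.46 and -0.03 after ozone, against -0.90, -0.71 and -0.85 after air, a difference of 1.73 (SE 0.25, adjusted p = 9.6e-05). The haem carrier Hpx rose by 1.51 (SE 0.24, adjusted p = 0.000251) and the protease inhibitor Serpina3n by 1.42 (SE 0.28, adjusted p = 0.00247). The median of the list from air was 0.60 at 24 hr. Orm1 (2.34, adjusted p = 0.125) and Saa1 (0.39, adjusted p = 0.636) were not called.

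Chemokines were called in part. Of 18 CXC chemokines and receptors 5 were higher (2.76% of all genes were) and 0 lower, with a median of 0.41. The count was 2 without air replicate 1 or ozone replicate 2, and 3 without air replicate 3 or ozone replicate 1. Cxcl3, which attracts neutrophils, read 1.35, 2.02 and 1.57 after ozone, against -1.58, -0.96 and -1.10 after air, a difference of 2.86 (SE 0.32, adjusted p = 7.44e-06). Cxcl10, which attracts activated T cells, read 1.43, 1.75 and 1.86 after ozone, against -1.02, -0.53 and -0.01 after air, a difference of 2.20 (SE 0.30, adjusted p = 6.52e-05). The ozone mice stood apart from the air mice in both. The neutrophil attractants Cxcl5 and Cxcl2 were called (2.31, adjusted p = 0.0279, and 0.81), but their groups overlapped and each call was lost without any of 4 of the 6 mice. Cxcl1 read 0.59, 2.03 and -0.02 after ozone, against -0.61, 0.02 and -0.71 after air, a difference of 1.30 (SE 0.36, adjusted p = 0.053).

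Of 20 CC chemokines and receptors 7 were higher (2.76% of all genes were) and 1 lower, with a median of 0.60. The count of 8 was 4 without ozone replicate 1 and 5 without air replicate 1 or air replicate 2. Ccl17, which attracts Th2 cells, read 0.43, 1.23 and 0.87 after ozone, against -0.76, -0.75 and -1.02 after air, a difference of 1.69 (SE 0.18, adjusted p = 4.75e-06). The monocyte attractant Ccl2 read 1.05, 1.30 and 0.33 after ozone, against -0.58, -0.85 and -0.98 after air, a difference of 1.70 (SE 0.24, adjusted p = 9.6e-05). Ccl7, which attracts the same cells, rose by 1.53 (SE 0.25, adjusted p = 0.000392). Ccl8 read 1.49, 1.46 and 0.84 after ozone, against -0.63, 0.14 and -0.52 after air, a difference of 1.60 (SE 0.30, adjusted p = 0.00154). All 4 had no overlap between the groups. The member that was lower, the eotaxin receptor Ccr3, differed by -0.41, and this call was lost without any of 4 mice.

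Of 26 genes of Tnf, its receptors and feedback, 4 were higher, and 2 without air replicate 1, while 2.76% of all genes were higher. In this list the median was 0.17, with 21 positive and 9 with all ozone mice above all air mice (12.6% of all genes). Tnf itself differed by 0.08 (SE 0.18, adjusted p = 0.916). The receptor of Tweak, Tnfrsf12a, rose by 0.91 (SE 0.17, adjusted p = 0.00132). Of 21 Toll-like receptors and adaptors 3 were higher (median 0.14, with 18 positive), and 2 without air replicate 1, ozone replicate 1 or ozone replicate 2. Tlr2, the receptor for bacterial lipoproteins, read 0.77, 0.72 and 0.79 after ozone, against -0.31, -0.44 and -0.19 after air, a difference of 1.07 (SE 0.15, adjusted p = 9.38e-05), and the adaptor Myd88 rose by 0.54 (SE 0.11, adjusted p = 0.00625). Of 17 genes of the Il1 family and inflammasome 16 had a positive difference, with a median of 0.32, and in 8 all ozone mice lay above all air mice, while Il1b alone was called (0.88, adjusted p = 0.0388) and lost without any of 4 mice (adjusted p = 0.367 without ozone replicate 1). The epithelial alarmin Il33 was higher by 0.84 (SE 0.19, adjusted p = 0.00919), lost without ozone replicate 2 (adjusted p = 0.0918).

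Macrophage genes of scavenging and alternative activation rose in 10 of 29 cases (2.76% of all genes were higher) and 0 were lower, with a median of 0.53. Their mean was 0.39, 0.53 and 0.29 in ozone mice, against -0.12, -0.10 and -0.01 in air mice. The count was 4 without air replicate 2, and 5 without air replicate 1 or ozone replicate 2. Retnla, a secreted marker of alternative activation, read 0.43, 0.70 and 0.55 after ozone, against -2.35, -1.003 and -1.75 after air, a difference of 2.25 (SE 0.31, adjusted p = 6.69e-05). The lysosomal protease Ctsk read 1.08, 1.61 and 1.07 after ozone, against -0.22, 0.13 and 0.02 after air, a difference of 1.27 (SE 0.16, adjusted p = 2.77e-05). Macrophage elastase Mmp12 read 0.50, 1.61 and 0.83 after ozone, against -0.22, -0.52 and -0.27 after air, a difference of 1.32 (SE 0.22, adjusted p = 0.000596). Galectin Lgals3 rose by 0.73 (SE 0.12, adjusted p = 0.000396). Of 5 marker genes used to define macrophages, 1 was called: the mannose receptor Mrc1 was higher by 0.60 (adjusted p = 0.0341), a call lost without any 1 of the 6 mice. The others were Adgre1 (0.19, adjusted p = 0.709), the alveolar macrophage lectin Siglecf (0.04, adjusted p = 0.972), the scavenger receptor Marco (0.68, adjusted p = 0.0702) and the growth factor receptor Csf1r (-0.15, adjusted p = 0.748). The lysosomal protein Cd68, found in most macrophages, read 0.68, 1.001 and 0.81 after ozone, against 0.02, -0.66 and 0.04 after air, a difference of 1.03 (SE 0.21, adjusted p = 0.00481) that did not pass without air replicate 2 (adjusted p = 0.0685). Ctsk was also 0.74 higher at 48 than at 24 hr (adjusted p = 0.0159), the only gene of this list to be so (0.863% of all genes were). That call was lost without any of 3 mice (adjusted p = 0.187 without 48 hr replicate 2).

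Of 23 neutrophil genes 1 was higher (2.76% of all genes were) and 1 lower at 48 hr, with a median of 0.22, against 0.38 at 24 hr. In this list 15 were positive, 5 had all ozone mice above all air mice (12.6% of all genes) and 2 had all below (9.29%). The calprotectin gene S100a8 read 2.41, -0.03 and -0.40 after ozone, against 0.76, 0.06 and 0.52 after air, a difference of 0.22 (adjusted p = 0.932). Only ozone replicate 1 was high. The receptors Csf3r (0.12, adjusted p = 0.94) and Cxcr2 (-0.04) did not pass either. Of the 2 called genes, Clec4e (1.10) lost its call without any of 3 mice (adjusted p = 0.107 without ozone replicate 1). Elane (-0.42) lost its call without any of 5 mice (adjusted p = 0.189 without air replicate 1). In the lists of T and natural killer cells (21 genes), B cells (18), MHC class II (13) and interferon-stimulated genes (26, median 0.02), 0 genes were called. Another probe set was called lower for 1 B cell gene and higher for 1 interferon-stimulated gene.

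Of 35 genes of the cornified envelope and keratins, 6 were higher (2.76% of all genes were) and 0 lower, with a median of 0.07. Sprr1a, a cornified envelope protein, read 0.89, 1.19 and 1.55 after ozone, against -2.29, -1.24 and -2.17 after air, a difference of 3.11 (SE 0.46, adjusted p = 0.000138). The envelope cross-linking enzyme Tgm1 read 0.68, 1.21 and 0.73 after ozone, against -1.19, -1.39 and -0.59 after air, a difference of 1.93 (SE 0.23, adjusted p = 2.1e-05). The simple keratins Krt19 and Krt18 rose by 1.01 (SE 0.15, adjusted p = 9.38e-05) and 0.85 (SE 0.16, adjusted p = 0.0015), and stratifin (Sfn) by 1.46 (SE 0.24, adjusted p = 0.000393). The basal cell markers Krt5 (0.21) and Trp63 (0.54) were not called.

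Ereg, a ligand of the EGF receptor, read 0.89, 1.13 and 1.25 after ozone, against -2.25, -1.5 and -2.27 after air, a difference of 3.10 (SE 0.33, adjusted p = 5.45e-06), a fold of 8.55. All ozone mice were more than 2 log2 above all air mice. It was 1 of 2 genes higher among 15 EGF receptors and ligands (median 0.19; 1 gene without air replicate 1, air replicate 2, ozone replicate 2 or ozone replicate 3), the other being Hbegf (0.81), whose call was lost without any of 4 mice. Of 21 claudins and junction genes 3 were higher (median 0.02), against 2.76% of all genes. The count was 0 without air replicate 1, air replicate 3 or ozone replicate 2, and 1 without ozone replicate 1. Among the claudins, Cldn4 was higher by 1.21 (SE 0.28, adjusted p = 0.014), with a call lost without any of 4 mice (adjusted p = 0.0801 without air replicate 1).

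Of 22 mucin and goblet cell genes 4 were higher (2.76% of all genes were) and 0 lower, with a median of 0.35. Slc26a4 (pendrin), an anion exchanger of airway epithelium, read 0.69, 2.21 and 0.74 after ozone, against -1.75, -1.25 and -1.40 after air, a difference of 2.68 (SE 0.34, adjusted p = 2.77e-05). Retnlb, a secreted goblet cell protein, read 0.93, 1.36 and 1.40 after ozone, against -0.22, -0.58 and -0.28 after air, a difference of 1.59 (SE 0.20, adjusted p = 2.64e-05). The antibody transporter Pigr was higher by 1.71 (SE 0.37, adjusted p = 0.00717) but not without ozone replicate 1 (adjusted p = 0.0613), and the count for the list was 2 without that mouse. Clca1, a goblet cell gene that varied widely, read 5.58, 6.99 and 1.26 after ozone, against -1.62, 2.84 and 1.21 after air, a difference of 3.80 (SE 1.51, adjusted p = 0.242). The mean over club cell genes, 0.70, 0.36 and -0.52 in ozone mice against -0.61, 0.66 and -0.06 in air mice, varied along with it, and its part in these results was not tested. Muc5b (1.24, adjusted p = 0.527) and Muc5ac (0.42, adjusted p = 0.17) were not called.

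Of 21 alveolar type 2 genes 3 were higher (2.76% of all genes were), 18 were positive and 7 had all ozone mice above all air mice (12.6% of all genes), with a median of 0.17. The count of 3 was 2 without air replicate 1, and 1 without air replicate 2 or ozone replicate 2. The collectin Sftpd was higher by 0.27 (SE 0.06, adjusted p = 0.0116), lost without air replicate 2 (adjusted p = 0.0717), and the surfactant protein Sftpc differed by 0.01 (adjusted p = 0.978). Of 22 alveolar type 1 genes 17 were negative, with a median of -0.17, 7 had all ozone mice below all air mice (9.29% of all genes) and 0 were called. In 19 club cell and 22 ciliated cell genes, 0 were called. Scgb1a1, the main club cell secretory protein, differed by 0.03 (adjusted p = 0.884).

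Of 26 matrix proteases, inhibitors and matricellular proteins, 5 were higher (2.76% of all genes were) and 0 lower, with a median of 0.16. Besides Timp1 and Mmp12, the aggrecanase Adamts4 read 0.88, 1.14 and 0.49 after ozone, against -0.77, -1.27 and -1.24 after air, a difference of 1.93 (SE 0.29, adjusted p = 0.000181). Tenascin (Tnc), a matrix protein of wounds, read 0.94, 1.03 and 1.20 after ozone, against -2.01, -1.15 and -0.56 after air, a difference of 2.30 (SE 0.42, adjusted p = 0.00127). Mmp3 was the other (1.08), and its call was lost without any 1 of the 6 mice. Of 24 collagen and elastic fiber genes 0 were called, with a median of 0.12. Of 20 coagulation genes 3 were higher and 1 lower, a count of 4 that was 1 without air replicate 1, air replicate 2 or ozone replicate 2 and 2 without air replicate 3 or ozone replicate 1. Coagulation factor F7 rose by 1.01 (SE 0.18, adjusted p = 0.00134). Thrombomodulin (Thbd), the anticoagulant receptor of endothelium, was lower by 0.42, a call lost without any 1 of the 6 mice.

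Antioxidant genes regulated by NRF2 were called in 7 of 27 cases, 6 higher (2.76% of all genes were) and 1 lower, with a median of 0.26. The median from air was 0.35 at 6 hr and 0.42 at 24 hr. Akr1b8, a reductase of reactive aldehydes, read 0.80, 0.74 and 0.31 after ozone, against -0.55, -0.40 and -0.56 after air, a difference of 1.12 (SE 0.21, adjusted p = 0.00213), and the glutaredoxin Glrx rose by 0.85 (SE 0.12, adjusted p = 6.03e-05). Gclc, which makes the first bond of glutathione, was higher by 1.03 (SE 0.22, adjusted p = 0.00621) and did not pass without ozone replicate 1 (adjusted p = 0.0626). The lower member, the epoxide hydrolase Ephx1, differed by -0.56 (SE 0.12, adjusted p = 0.00852) and lost its call without either of 2 mice (adjusted p = 0.12 without air replicate 1). The count of 7 was 3 without air replicate 1, ozone replicate 1 or ozone replicate 2. Metallothionein Mt2, which binds zinc, read 0.89, 1.11 and 0.02 after ozone, against -0.69, -0.78 and -1.30 after air, a difference of 1.59 (SE 0.26, adjusted p = 0.000432). The stress gene Gadd45g read 1.03, 0.66 and -0.17 after ozone, against -0.83, -0.95 and -0.90 after air, a difference of 1.40 (SE 0.26, adjusted p = 0.00178). In both, ozone replicate 3 was the lowest of the ozone mice.

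Sterol genes were called in synthesis and in the handling of oxysterols. Of 20 cholesterol synthesis genes 5 were higher (2.76% of all genes were) and 0 lower, with a median of 0.29. The count was 1 without air replicate 1, 2 without air replicate 2, ozone replicate 1 or ozone replicate 2, and 3 without ozone replicate 3. The squalene epoxidase Sqle rose by 0.64 (SE 0.12, adjusted p = 0.00234). Ch25h, which makes the oxysterol 25-hydroxycholesterol, read 0.91, 0.61 and 0.38 after ozone, against -1.45, -1.33 and -1.47 after air, a difference of 2.05 (SE 0.25, adjusted p = 2.64e-05). It was already 1.07 above air at 6 hr and was 2.52 above air at 24 hr. Cyp7b1, which breaks oxysterols down, rose by 1.40 (SE 0.30, adjusted p = 0.00723).

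All 28 ribosome biogenesis genes had a positive difference, with a median of 0.34, and in 22 of them every ozone mouse lay above every air mouse (12.6% of all genes did so), while 3 were called. Ltv1, which matures the small subunit, was called at 0.54 (adjusted p = 0.00154). Without air replicate 2, 1 of the list was called, and 5 without air replicate 3 or ozone replicate 3. Of 36 proteasome subunits 33 had a positive difference, with a median of 0.21, and 14 had all ozone mice above all air mice (12.6% of all genes). By the probe set that stands for each gene 0 were called (2.76% of all genes were higher), and another probe set was called higher for 1. Of 28 genes of the unfolded protein and amino acid response 20 were positive and 7 had all ozone mice above all air mice (12.6% of all genes). Of these 28, 4 were called (9 without air replicate 3, 2 without ozone replicate 3 and 1 without any other of the 6 mice). Of 19 heat shock genes 11 were positive, 4 had all ozone mice above all air mice (12.6% of all genes) and 1 was called. This call was lost without air replicate 1, air replicate 2, ozone replicate 2 or ozone replicate 3. The endothelial list showed the reverse, with 27 of 29 genes negative, a median of -0.27, 13 with all ozone mice below all air mice (9.29% of all genes did so) and 0 called. Another probe set was called lower for 2 of the endothelial genes. The vascular receptor Kdr differed by -0.19 (adjusted p = 0.765), the adhesion molecule Pecam1 by -0.11 (adjusted p = 0.906) and Tmem100 by -0.66 (adjusted p = 0.505).

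Falls were fewer and smaller than the rises. The largest was Acaa1b, a thiolase of peroxisomal fatty acid breakdown, which read -1.09, -1.54 and -0.84 after ozone, against 0.23, 0.28 and -0.08 after air, a difference of -1.30 (SE 0.25, adjusted p = 0.00213), so that air was 2.46 times ozone. The monocarboxylate transporter Slc5a12 read -0.54, -0.74 and -0.64 after ozone, against 0.29, 0.15 and 0.59 after air, a difference of -0.98 (SE 0.20, adjusted p = 0.00421). The transcription factor Dach1 read -0.66, -0.72 and -0.55 after ozone, against 0.60, 0.27 and -0.01 after air, a difference of -0.93 (SE 0.17, adjusted p = 0.00143). In all of these the lowest air mouse was above the highest ozone mouse.

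The lipoprotein receptor Vldlr read -0.71, -0.70 and -0.39 after ozone, against 0.43, 0.36 and 0.10 after air, a difference of -0.90 (SE 0.18, adjusted p = 0.00411). Ecm2, a matrix protein, read -0.12, -0.30 and -0.64 after ozone, against 0.66, 0.60 and 0.34 after air, a difference of -0.88 (SE 0.16, adjusted p = 0.00145). Ddc, a decarboxylase of dopamine and serotonin synthesis, read -0.13, -0.45 and -0.78 after ozone, against 0.28, 0.37 and 0.64 after air, a difference of -0.88 (SE 0.16, adjusted p = 0.00096), and at 24 hr its difference from air was -1.23. Air mice were above ozone mice in all 3 genes, by the least in Ddc. Among the other large falls, Hbb-b2, a globin of red blood cells, differed by -1.12, a call lost without any of 4 mice (adjusted p = 0.275 without air replicate 1). The secreted protein Scube2 differed by -0.89, a call lost without any of 5 mice (adjusted p = 0.228 without air replicate 1). Of the 15 largest falls, 8 kept their calls with any 1 mouse left out.

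Clock genes were lower by the list median (-0.39 over 18 genes), with 1 called higher and 1 lower. Dbp, a clock output gene, read -1.10, -1.29 and 0.73 after ozone, against 1.84, -0.48 and 1.51 after air, a difference of -1.51 (adjusted p = 0.208), and the groups overlapped. Nfil3 (1.33, adjusted p = 0.0172) and Nr1d1 (-0.69, adjusted p = 0.0254) each lost the call without any of 4 mice. The highest adjusted p was 0.126 for Nfil3 (without ozone replicate 1) and 0.221 for Nr1d1 (without air replicate 1). Without air replicate 2, 5 genes of the list were called, without ozone replicate 3 there were 3, and without any of the other 4 mice 0. The hour of day at which lungs were taken is not in the labels, and its part in these values was not tested. Of 25 Notch receptors, ligands and targets 0 were called, with a median of -0.03. The targets Hey1 and Hey2 differed by -0.38 (adjusted p = 0.423) and -0.39 (adjusted p = 0.152), Hes1 by 0.01 (adjusted p = 0.987), and the receptors Notch1 and Notch2 by -0.24 (adjusted p = 0.883) and -0.03 (adjusted p = 0.95).

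Whether the response at 48 hr differed by genotype was asked as the ozone minus air difference in Notch3-/- mice minus that in WT mice. Of 45037 probe sets, 1 (0.00222%) passed, and 1303 had an unadjusted p under 0.05. It belonged to Psca, a cell surface antigen of epithelia. Psca read -0.08, 0.01 and 0.06 after ozone and 0.15, -0.01 and -0.003 after air in Notch3-/- mice, against 3.11, 3.10 and 2.92 after ozone and 1.48, 1.65 and 1.20 after air in WT mice. The difference from air was -0.05 in Notch3-/- mice (adjusted p = 0.942) and 1.60 in WT mice (adjusted p = 4.63e-07), and the responses differed by -1.65 (SE 0.21, adjusted p = 0.000732). After a further quantile normalization of the arrays 0 probe sets passed. In Notch4-/- mice Psca read -0.14, -0.09 and 0.03 after ozone, against -0.34, 0.06 and -0.12 after air. The Notch3-/- and Notch4-/- mice thus stood at 1 level in both groups, below all WT mice. Only the WT ozone mice were raised over their air mice. Whether the knockout values were near background, where no response could show, cannot be read from centred values.

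Of the 871 probe sets higher in Notch3-/- mice, 858 had a positive difference in WT mice, with a median of 0.59, and 865 in Notch4-/- mice, with a median of 0.56 (869 and 0.77 without Notch4-/- air replicates 1 and 2). Of the 238 lower, 216 were negative in WT mice, with a median of -0.25, and 211 in Notch4-/- mice, with a median of -0.24 (204 and -0.23 without these 2 mice). As these probe sets were chosen for their size in Notch3-/- mice, smaller medians elsewhere are no test of a weaker response. In the mitosis list, 47 genes were higher in Notch3-/- mice, 20 in Notch4-/- mice (2.07% of all genes) and 44 in WT mice (1.84% of all genes), with medians of 1.32, 0.80 and 1.25. Without Notch4-/- air replicates 1 and 2 the Notch4-/- count was 37 (2.43% of all genes) and the median 1.29, with the spread of the lone air mouse borrowed from the other groups. In the replication list the counts were 29 in Notch3-/- mice, 7 in Notch4-/- mice (9 without these 2 mice) and 20 in WT mice. Cdk1 read 1.76, 1.68 and 1.54 after ozone and -1.40, -0.74 and -0.58 after air in WT mice, a difference of 2.57. In Notch4-/- mice it read 2.18, 1.80 and 2.06 after ozone and 1.22, 1.32 and -0.52 after air, a difference of 1.34, or 2.53 against air replicate 3 alone.

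**Figure D5:**
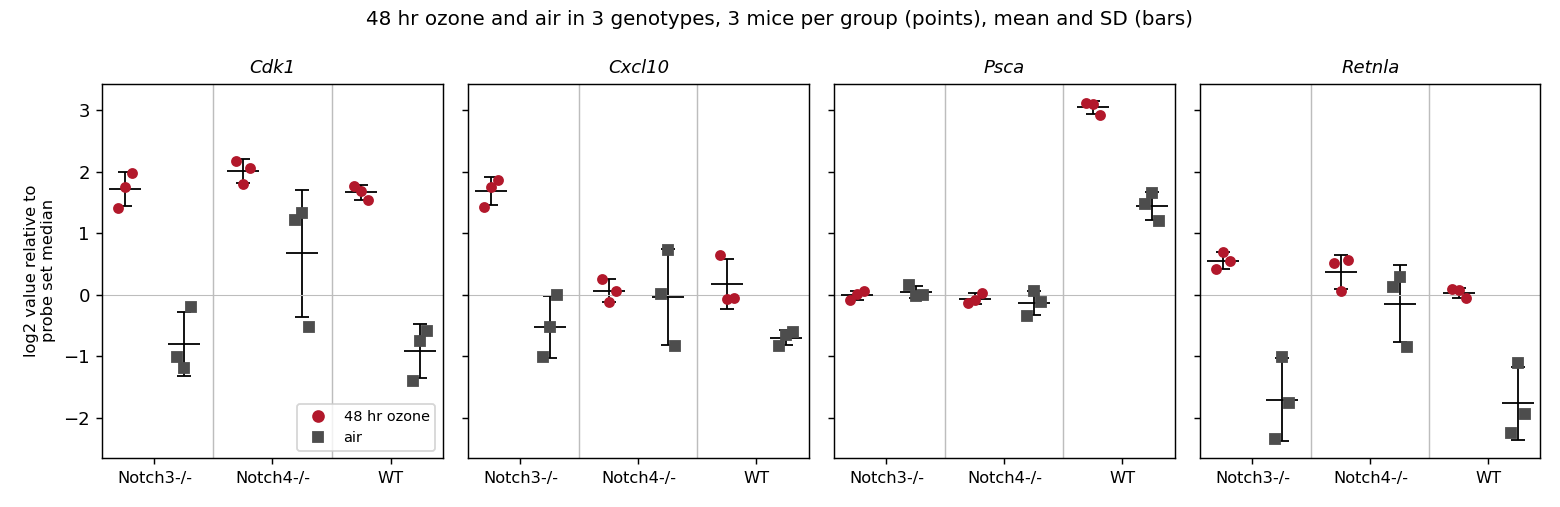
Log2 value relative to the probe set's median for Cdk1, Cxcl10, Psca and Retnla after 48 hr ozone (red circles) and after air (grey squares) in Notch3-/-, Notch4-/- and WT mice, 1 point per mouse, with mean and SD as bars (n = 3 each). For Psca only the WT mice are above 1, and for Cdk1 the Notch4-/- air mice spread between -0.52 and 1.32.

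Set against Notch4-/- mice, 0 of 45037 probe sets (0%) differed in response, with 1784 at an unadjusted p under 0.05, and 0 passed without Notch4-/- air replicates 1 and 2. The lowest p-values belonged to Cxcl10, the brain and plasma cholinesterase Bche and the glycosyltransferase Galnt13, at an adjusted p of 0.557 each. Cxcl10 differed from air by 2.20 in Notch3-/- mice, by 0.10 in Notch4-/- mice and by 0.87 in WT mice. It read 0.26, -0.12 and 0.07 after ozone and 0.01, 0.73 and -0.83 after air in Notch4-/- mice, and 0.65, -0.07 and -0.06 after ozone and -0.83, -0.65 and -0.61 after air in WT mice. All 3 Notch3-/- ozone mice were thus above the ozone mice of the other genotypes, while the difference in response was 2.10 against Notch4-/- mice (1.30 without the 2 air mice, adjusted p = 0.84) and 1.33 against WT mice (adjusted p = 1). Retnla differed by 2.25 in Notch3-/- mice, by 0.52 in Notch4-/- mice (1.23 without the 2 air mice) and by 1.80 in WT mice. The median SE of a difference in response was 0.196, against 0.139 for ozone minus air, so a difference in response had to be larger to pass.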

How the data were processed

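RNA from the left lung of each mouse was measured on 1 Affymetrix array of mouse transcripts. The authors summarised the arrays by robust multiarray average (RMA) in GeneSpring and deposited log2 values for 45101 probe sets. In the deposited log2 values each probe set is centred on its median over the 36 arrays (largest absolute median 5e-07), which the methods do not describe. Differences between arrays are unaffected, but signal over background cannot be read. Precision is limited by the number of arrays. The array medians lay between -0.03 and 0.03.

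Groups and replicates came from the sample titles and every value column belongs to 1 mouse (0 were unassigned). Differences were tested over the 45037 probe sets that are not controls in R 4.3.3, with lmFit and eBayes of limma 3.58.1, 1 mean for each of the 12 groups, Benjamini-Hochberg adjustment over all of them for each comparison and a threshold of 0.05. There were 4 comparisons: 48 hr ozone minus air in Notch3-/- mice, this difference minus that of WT and minus that of Notch4-/- mice, and 48 minus 24 hr ozone. The median SE of ozone minus air was 0.139 log2. By the annotation of the platform 34945 probe sets carry 1 symbol, 932 more than 1 and 9160 none. Symbols were updated from RefSeq by gene ID for 34741. In the 63 gene lists a gene is represented by its most specific probe set by suffix, and then by the lowest number. The lists were written, and the comparison chosen, with earlier results of these data known, so no list was tested.

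Named genes are Notch3, the 15 largest rises and falls among called genes whose groups do not overlap, up to 6 genes with the lowest p of each list, genes of the study's text and pattern figure, the called or lowest-p genes of the response differences, and the 10 lowest p each way between 48 and 24 hr. Plk1, Ccnb2, Mcm4 to Mcm7 and the other list members were named as examples after their values were seen, as were members given as not called. Promoter windows of 300 bases were taken from RefSeq (GRCm38.p6), 32851 windows of 27025 genes. For each gene only the window with the farthest upstream start was searched for motifs. On simulated data of 45037 probe sets the ozone minus air test recovered 20.7% of 58 changes of 0.5 log2. It recovered 79.2% of 77 changes of 1 log2 and 100% of 65 of 2 log2, with 11 of 149 calls false. The simulated noise was normal and independent between arrays and probe sets, with few changes and no outlying array. These rates therefore check the code and do not carry over to the mice compared here. The alternatives were the arrays in the fit, quantile normalization, centring, array weights, a robust prior, fewer probe sets, a replicate block and each array left out in turn. A further one was an ANOVA over the 12 groups with Tukey's test and then Benjamini-Hochberg adjustment. It is modelled on the methods' 2-way ANOVA and need not give the authors' counts.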

Additional observations from a re-analysis of the deposited data

Results flagged for a closer look

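The response of Psca to 48 hr ozone in Notch3-/- mice differed from that in WT mice by -1.65, the only probe set of 45037 to pass the test of the difference in response.

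The response at 48 hr differed from that at 24 hr in Notch3-/- mice for 360 probe sets by the direct test of 48 minus 24 hr. Among the lists, that test called 45 of 66 genes of mitosis and cytokinesis and 11 of 41 of replication. Of DNA repair and checkpoint genes it called 6 of 27. It called 3 of 20 genes of deoxynucleotide synthesis and 3 of 30 of the step into S phase. All of these were higher at 48 hr (0.863% of all genes were). The count of 3 for the step into S phase was 1 without 24 hr replicate 1, 24 hr replicate 2 or 48 hr replicate 3, and 2 without 48 hr replicate 1 or 48 hr replicate 2. The test also called 1 of 29 macrophage genes (Ctsk, higher at 48 hr). Of 18 clock genes it called 1, Arntl, which was lower at 48 hr by 0.67 (adjusted p = 0.017). The Arntl call was lost without any of 4 mice (adjusted p = 0.153 without 24 hr replicate 3). Groups of 3 mice are too small for a test of single outlying mice.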

How the results depend on the processing

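Against 1109 probe sets for 48 hr ozone minus air, the count was 707 with Notch3-/- arrays alone, 494 with the 6 arrays alone, 4010 with array weights, 675 with 1 probe set per gene and 158 with ANOVA and Tukey's test, which called 22 mitosis and 9 replication genes. Leaving out 1 mouse gave between 560 and 1187. The other alternatives gave between 1016 and 1287. The share of calls that were higher was 78.5%, and 90.7% with the 6 arrays alone, 60.0% with array weights and 93.0% with Tukey's test. For 48 minus 24 hr, the 360 became 840 with Notch3-/- arrays alone (285 higher and 555 lower), 1890 with the 6 arrays alone (463 higher and 1427 lower), 4606 with array weights (2292 higher and 2314 lower), 188 with 1 probe set per gene and 6 with Tukey's test, and lay between 153 and 314 with 1 mouse left out. The response difference from WT had 1 probe set, 0 after quantile normalization, 2 with array weights and between 1 and 2 with 1 mouse left out. The response difference from Notch4-/- mice had 0, with 35 under array weights, between 0 and 6 with 1 mouse left out (6 without Notch4-/- ozone replicate 2), and 0 without Notch4-/- air replicates 1 and 2, an alternative chosen after seeing the data. Calls of list members and named genes between 48 and 24 hr with 1 mouse left out, and the signs of called probe sets in Notch4-/- mice without these 2 mice, were also added after seeing the data. Tukey's test was not run for response differences. The cause of these shifts was not tested. Of 247 named genes, all chosen among those called, 87 lost their call with the 6 arrays alone, 54 with Notch3-/- arrays alone and 175 with Tukey's test. These settings leave each difference unchanged, so no sign could reverse in them. Under the settings that change the differences, 0 reversed. Deviations of same-numbered ozone and air mice had correlations of -0.11, -0.06 and 0.11, within the -0.14 to 0.21 of differently numbered mice. So few values cannot show whether replicate numbers pair the mice, and the labels do not say what the numbers mark. With the number as a replicate block, 1170 probe sets were called for ozone minus air, 421 for 48 minus 24 hr, 1 against WT and 0 against Notch4-/- mice.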

Other observations

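Several lists not described above are given here for Notch3-/- lung at 48 hr. Of 20 p53 target and Gadd45 genes 1 was higher, of 21 glutathione S-transferases 1, and of 23 glycolysis genes 3 (2.76% of all genes were higher). The groups did not overlap, with ozone higher, in 2, 2 and 7 genes of these lists (12.6% of all genes). The glycolysis count was 2 without air replicate 1, air replicate 2, ozone replicate 1 or ozone replicate 2. Psat1, an enzyme of serine synthesis, rose by 1.22 (SE 0.21, adjusted p = 0.000855). Slfn9, a Schlafen family gene, read 0.93, 0.78 and 0.85 after 48 hr ozone, against -0.35, -0.31 and 0.02 after air, a difference of 1.06 (SE 0.17, adjusted p = 0.000271), and was 0.95 higher at 48 than at 24 hr (adjusted p = 0.00239). In 35 mitochondrial respiratory chain genes, 24 TGF-beta genes and 26 Wnt genes, 0 were called, though another probe set was called lower for 1 TGF-beta gene.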
